A study of Mus musculus with 6 samples.

Results

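Slc18a2 encodes the vesicular monoamine transporter that is also known as VMAT2. It was described here with 7 other genes of monoamine handling: Slc18a1, Slc6a2, Slc6a4, Ddc, Th, Maoa and Maob. The members were taken by gene symbol from the platform annotation, which gave 15 probe sets for these 8 genes, out of 45101 probe sets and 18193 named genes on the array. The set was chosen on the measured Slc18a2 difference between these same groups, so the members' values are a description and carry no test. The arrays hold RNA of 3 samples labelled granulosa cell tumor of a Smad1/5/8 mutant mouse and of 3 samples of wild-type granulosa cells, the somatic follicle cells next to the oocyte. The wild-type cells came from C57BL/6J;129S5/SvEvBrd females aged 21 days, 44 to 46 hours after an injection of PMSG, a gonadotropin preparation that stimulates follicle growth. Each wild-type sample pooled 2 to 3 females. The tumors were untreated, per the labels, and are called independent of each other; they were kept overnight in a storage solution. The sources used here do not give how or in which cells Smad1, Smad5 and Smad8 were mutated, nor strain and age of the tumor mice.

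Monoamine neurotransmitters are made from aromatic amino acids. Tyrosine hydroxylase (Th) starts catecholamine synthesis with tetrahydrobiopterin as cofactor, and the decarboxylase encoded by Ddc makes dopamine and serotonin from their precursors. The transporters of Slc18a2 and Slc18a1 load amines into vesicles against a proton gradient that the vacuolar proton pump sets up. Slc6a2 and Slc6a4 encode the transporters that take noradrenaline and serotonin back into cells, and the enzymes of Maoa and Maob oxidise amines at the outer mitochondrial membrane. In the ovary, sympathetic nerve fibres are a known source of noradrenaline. Outside neurons, Slc18a2 is known from mast cells and platelets, which store histamine and serotonin.

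Genotype was not all that separated the groups: the tumors are tissue and the wild-type samples isolated cells, PMSG was given to the wild-type mice alone, and different software (MAS5 for wild type, GCOS for tumors) made the signals. The effects of these and of genotype cannot be told apart. Smad1 and Smad5 signals were not lower in the samples labelled tumor: of 6 passing probe sets, 5 separated the groups with the tumors on top, with log2 differences of 0.41 to 1.44, and 1 overlapped. The only Smad9 (Smad8) probe set lay below 100 on all 6 arrays. Where the probe sets lie relative to the mutations is not given in the sources, so these signals are no check of the labels, and "tumor" below means the label. A signal of 100 on at least 3 of 6 arrays was the minimum for testing a probe set, and 11611 genes were tested. The highest signal of 27 bacterial control probe sets whose transcripts are not part of the hybridisation control mix was 101. Between 22599 and 25049 probe sets reached 100 on an array. The Actb control probe sets, a sign of RNA quality, had log2 ratios of 3' to 5' signal of 0.33 to 0.67 in wild-type samples and 0.57 to 0.97 in tumors. Those of Gapdh were -0.45 to -0.32 and -0.47 to -0.24. The part of RNA quality in the results was not tested.

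The 250 bases before and 50 after the annotated start are shown for Slc18a2 and Maoa. Their signals separated the groups, for Maoa on its brighter probe set alone. Th is shown because its window, like that of Slc18a2, holds the full cAMP response element. They come from RefSeq, build GRCm38.p6, where 5 of the 8 members matched. The Slc18a2 window is at chr19:59260628-59260927 on the plus strand, the Maoa window at chrX:16619448-16619747 on the plus strand and the Th window at chr7:142899946-142900245 on the minus strand. Capitals mark matches, on either strand, to any of 8 motifs: the TATA box TATAAA, the GC box GGGCGG, the cAMP response element TGACGTCA and its core TGACG, the nuclear receptor motif AAGGTCA, the GATA motif AGATAA, and the Smad motifs GTCTAGAC and GGCGCC. The core lies inside the full element.
Slc18a2: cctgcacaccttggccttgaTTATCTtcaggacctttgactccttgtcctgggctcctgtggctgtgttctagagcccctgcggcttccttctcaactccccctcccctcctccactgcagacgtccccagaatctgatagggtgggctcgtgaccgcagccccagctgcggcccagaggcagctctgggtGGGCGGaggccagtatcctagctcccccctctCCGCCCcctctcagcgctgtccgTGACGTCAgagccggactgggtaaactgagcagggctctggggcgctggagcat
Maoa: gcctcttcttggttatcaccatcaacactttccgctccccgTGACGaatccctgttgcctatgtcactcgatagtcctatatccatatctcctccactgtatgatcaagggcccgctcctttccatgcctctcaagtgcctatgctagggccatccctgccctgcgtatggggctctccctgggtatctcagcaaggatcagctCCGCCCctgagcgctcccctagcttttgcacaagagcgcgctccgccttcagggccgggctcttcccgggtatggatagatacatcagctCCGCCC
Th: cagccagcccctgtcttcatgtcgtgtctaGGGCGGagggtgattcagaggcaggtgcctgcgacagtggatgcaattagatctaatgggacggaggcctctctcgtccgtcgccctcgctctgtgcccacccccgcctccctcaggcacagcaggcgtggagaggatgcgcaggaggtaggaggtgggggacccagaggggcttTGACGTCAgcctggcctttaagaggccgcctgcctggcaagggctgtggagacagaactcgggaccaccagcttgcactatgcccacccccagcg
The cAMP response element TGACGTCA starts at position -4 in the Slc18a2 window and at -45 in the Th window, and 1.79% of 32851 promoter windows hold it. The GC box GGGCGG, held by 35.7% of the windows, occurs at -59 and -27 for Slc18a2, at -46 and 45 for Maoa and at -220 for Th. TGACG alone, held by 20.8%, occurs at -209 for Maoa. For Slc18a2 the GATA motif AGATAA, held by 11.2%, starts at -230. The Smad motifs GTCTAGAC and GGCGCC, held by 0.213% and 11.9% of the windows, had no match in these 3 windows. The Slc6a4 window, not shown, holds GGCGCC at -11, 3 GC boxes and TGACG at -101. A Ddc window, at chr11:11898095-11898394 and not shown, holds AAGGTCA at -73 and the TATA box at -68. These motifs, held by 4.72% and 13.6% of the windows, had no match in the 3 windows shown. A match is a description of the letters and not a binding site.

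The vesicular transporter gene Slc18a2 had much higher signals in tumors. Its single probe set gave 3689, 4859 and 2391 for wild type and 27833, 36468 and 31673 for the tumors. The lowest tumor signal was 5.73 times the highest wild-type signal, so the groups did not overlap. Means were 3647 ± 1235 (SD, n = 3) and 31992 ± 4326, a log2 fold change of 3.17 (limma SE 0.27), or 9.01-fold on the log2(signal + 32) scale. Of the 11611 tested genes, 44 had a larger log2 fold change. The tumors were closer to each other than the wild-type samples were: the coefficient of variation was 13.5% over tumors and 33.9% over wild-type samples, with the highest signal 1.31 and 2.03 times the lowest. Without 1 sample at a time the log2 fold change ranged from 2.90 to 3.41. In bulk samples, a change in the number of cells of a type and a change in RNA per cell cannot be told apart.

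**Figure D1:**
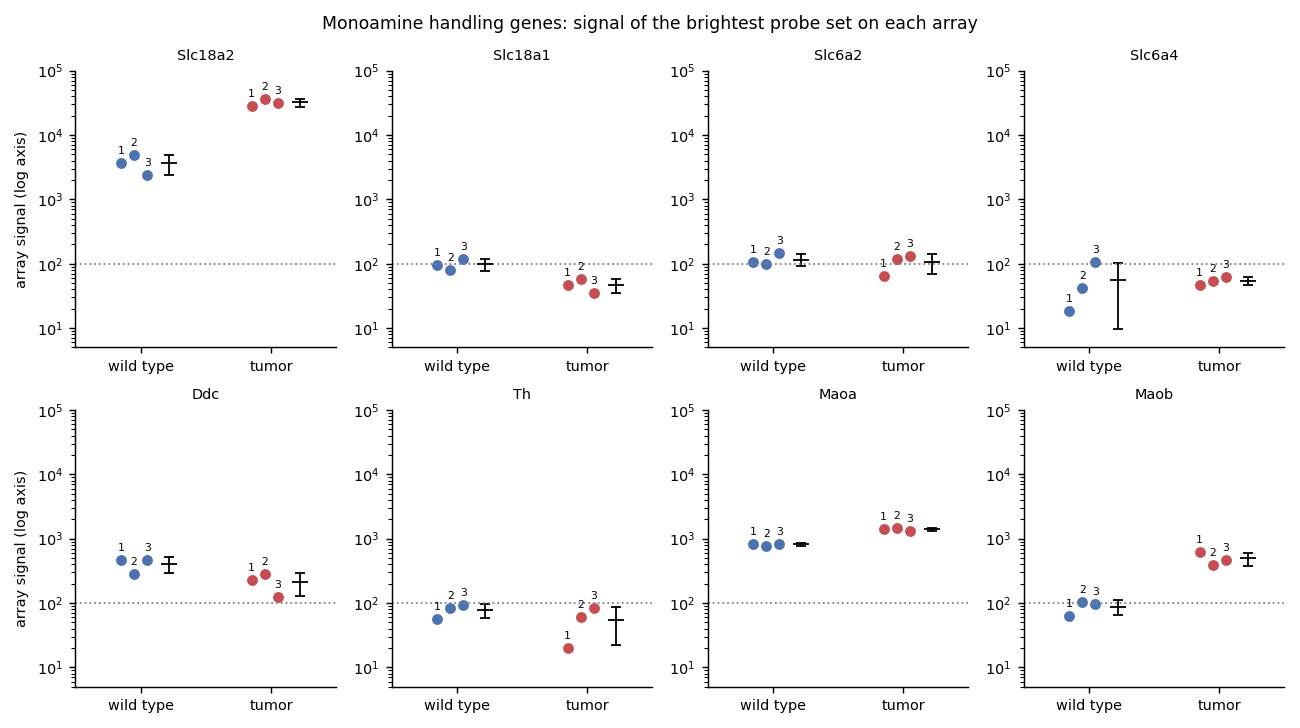
Array signal on a log axis for the brightest probe set of each of the 8 members, with 1 point per array (numbered by replicate), the mean with SD beside the points and a dotted line at 100. The 3 tumor points of Slc18a2 lie between 27833 and 36468, above all wild-type points, while Slc18a1, Slc6a2, Slc6a4 and Th lie around or below 100.

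Slc18a1 encodes the other vesicular monoamine transporter, known from neuroendocrine cells. Its 3 probe sets failed the filter, with signals between 2.46 and 119 on the 18 readings. The brightest read 94.8, 79.1 and 119 in wild-type samples and 47.3, 58.5 and 35.3 in tumors. All tumor values were the lower ones, but 5 of these 6 signals lay below 100, so no fold is given. The other Slc18a1 probe sets, all below 100, overlapped between the groups.

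The plasma membrane transporter genes were at the limit of detection in both groups. Slc6a2, the noradrenaline transporter gene, had 4 probe sets, of which 2 passed the filter. The brighter read 105, 97.6 and 145 in wild-type samples and 64.9, 117 and 132 in tumors, a log2 fold change of -0.14 (limma SE 0.24). The groups overlapped. The other passing probe set read 65.5 to 113 in wild-type samples and 19.9 to 115 in tumors. For Slc6a4, the serotonin transporter gene, the only probe set read 18.2, 42.6 and 108 against 47.2, 53.0 and 62.4. All 3 tumors lay below 100 and inside the wild-type range.

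Of the synthesis genes, Th read 57, 84.8 and 93.6 in wild-type samples and 19.9, 60.3 and 83.7 in tumors on its only probe set, below 100 on all 6 arrays. Ddc had 1 passing probe set, which read 471, 278 and 468 in wild-type samples and 227, 286 and 124 in tumors. The tumor values were mostly the lower ones, but tumor 2 lay above wild-type sample 2, so the groups overlapped. Means were 406 ± 111 (SD, n = 3) and 212 ± 82.0, a log2 fold change of -0.87 (limma SE 0.31). The size rested on single arrays: it was -0.57 without tumor 3 and -1.10 without wild-type sample 2. The other Ddc probe set stayed between 2.80 and 22.6.

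Signals of the oxidase genes Maoa and Maob were higher in tumors, Maob by more and Maoa on its brighter probe set alone. Maob read 62.0, 105 and 97.0 in wild-type samples and 613, 393 and 469 in tumors, means of 87.9 ± 22.8 (SD, n = 3) and 492 ± 112. Each tumor lay at least 3.75 times above the highest wild-type value. The log2 fold change was 2.12 (limma SE 0.22), and 227 tested genes had a larger one. Maob reached 100 on only 1 wild-type array, so it passed the filter through the tumors and its fold depends on the pseudocount: 2.48 with 1 and 1.65 with 100.

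The brighter Maoa probe set read 837, 770 and 830 in wild-type samples and 1408, 1468 and 1295 in tumors. The groups did not overlap, and replicates lay close together, with coefficients of variation of 4.57% and 6.34%. Means were 812 ± 37.1 (SD, n = 3) and 1390 ± 88.1, a log2 fold change of 0.75 (limma SE 0.13). The second Maoa probe set did not show this: it read 265, 102 and 200 against 306, 155 and 146, with overlapping groups and a log2 difference of 0.10. With both averaged, the log2 fold change was 0.42. Scaled to the bacterial hybridisation controls, Maoa was lower in tumors (log2 fold change -0.27), while Slc18a2 (2.13) and Maob (1.25) stayed higher. That scaling put the median of all genes at -0.98; relative to it, Slc18a2 was at 3.11, Maob at 2.24, Maoa at 0.72 and Ddc at -0.79.

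Of the 8 members, 5 passed the filter. In 3 of these (Slc18a2, Maob and Maoa) all tumors lay above all wild-type samples on the brightest probe set. Among all tested genes the tumors lay above in 23.7%, and the groups did not overlap in either direction in 46.3%. Since the members were chosen with this contrast known, nothing is read from their count.

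Other genes of the monoamine pathway were listed by role, 120 in 7 lists; the array names 103 of them, and 54 were tested. A gene counts as called where limma's p, adjusted by Benjamini-Hochberg over the 11611 genes, was under 0.05. Of the 54, 8 were called higher (14.8%) and 9 lower (16.7%), near the 14.5% and 12.6% of all tested genes. Their median log2 fold change was -0.23, against 0.00 for all. Without wild-type sample 3 the counts were 3 and 8, without wild-type sample 1 they were 4 and 5, without wild-type sample 2 they were 5 and 7, and without tumor 2 they were 6 and 6.

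**Figure D2:**
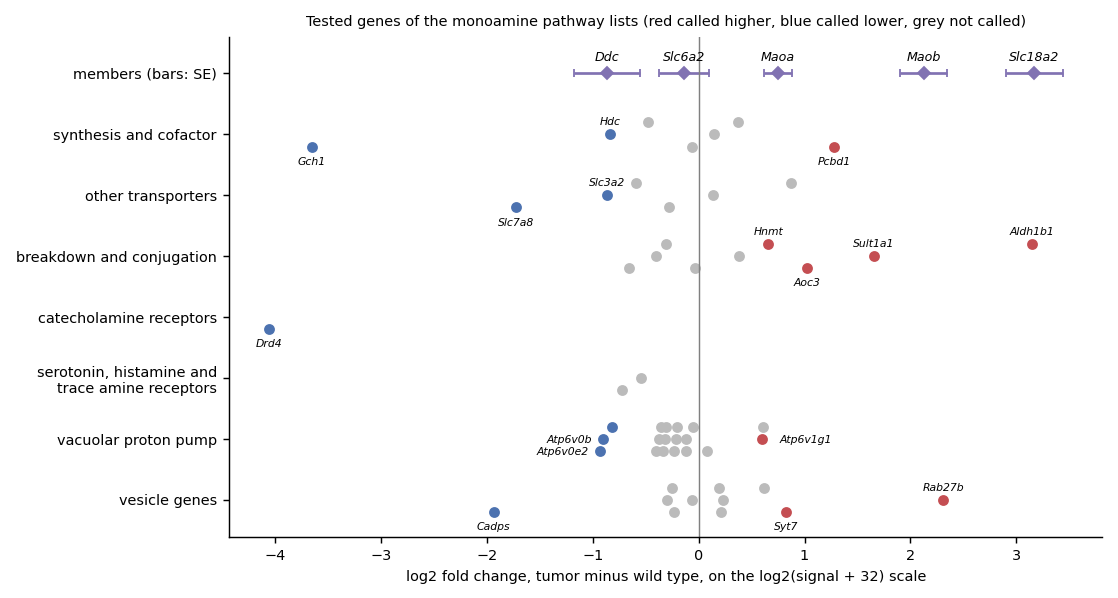
Log2 fold change (tumor minus wild type) of the 5 tested members with limma's SE, and of each tested gene of the 7 pathway lists in rows, coloured by call. Gch1 lies at -3.65, Slc18a2 at 3.17 and Aldh1b1 at 3.15. The places of Drd4 and Cadps depend on the pseudocount, since their tumor signals all lay below 100, and their order against Gch1 is not read.

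Gch1, the gene of the first step of tetrahydrobiopterin synthesis, was far lower in tumors. Of the synthesis and cofactor genes, 7 were tested: 1 rose, 2 fell and 4 missed the threshold, at a median log2 fold change of -0.07 (-1.07 with hybridisation control scaling). Gch1 encodes the rate-limiting enzyme of that synthesis and read 9149, 7541 and 8886 in wild-type samples and 1022, 591 and 445 in tumors. All tumors lay far below all wild-type samples. Gch1 had a log2 fold change of -3.65 (limma SE 0.29, adjusted p = 0.000521), and its second probe set a log2 difference of -2.93. The later enzymes of that pathway did not pass: Pts had a log2 fold change of -0.07 and Spr of -0.48. Pcbd1, which helps to regenerate the cofactor after use, rose. It averaged 750 ± 100.2 (SD, n = 3) in wild type and 1865 ± 197 in tumors, with log2 fold change 1.28 (limma SE 0.16, adjusted p = 0.0024; 0.26 and not called with hybridisation control scaling).

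Hdc, which makes histamine, fell. Its mean signal was 277 ± 43.3 (SD, n = 3) in wild type and 145 ± 54.3 in tumors, with log2 fold change -0.84 (limma SE 0.24, adjusted p = 0.0389). That call was weak. It was lost without any 1 sample except tumor 1, with adjusted p up to 0.119, and with both Hdc probe sets averaged (limma adjusted p = 0.0886). The hydroxylase genes of serotonin synthesis, Tph1 and Tph2, lay below 100 on all 6 arrays. Dbh, which makes noradrenaline from dopamine, read 65.8, 77.9 and 4.10 in wild-type samples and 90.9, 121 and 45.7 in tumors.

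Of the other transporter genes 6 were tested: 0 rose, 2 fell and 4 missed the threshold, at a median of -0.44 (-1.40 with hybridisation control scaling). Both that fell encode parts of 1 transporter. Slc7a8 encodes a carrier of large neutral amino acids, the class that holds the monoamine precursors, and Slc3a2 its heavy chain. Slc7a8 read 1564, 1411 and 1089 in wild-type samples and 215, 325 and 775 in tumors, log2 fold change -1.73 (limma SE 0.41, adjusted p = 0.0219). Tumor 3 stood nearest to the wild-type samples. The call was lost without wild-type sample 1 (0.0794), wild-type sample 2 (0.0656) or tumor 2 (0.0603). Slc3a2 fell: its mean signal was 5898 ± 445 (SD, n = 3) in wild type and 3255 ± 555 in tumors, with log2 fold change -0.86 (limma SE 0.17, adjusted p = 0.0114; 0.0544 without wild-type sample 1). Of the 4 that missed the threshold, Slc7a5 (0.14) and Slc16a10 (0.87, limma adjusted p = 0.0523) had positive log2 fold changes. Those of Slc18b1 (-0.28) and Slc29a4 (-0.59) were negative. The dopamine transporter gene Slc6a3 failed the filter.

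Genes of amine breakdown and conjugation rose or did not pass: 4 of 9 rose, 0 fell and 5 did not pass, with a median of 0.38 (1 higher, 4 lower and -0.67 with hybridisation control scaling). Aldh1b1, a mitochondrial aldehyde dehydrogenase gene, read 185, 133 and 135 in wild-type samples and 1503, 1453 and 1794 in tumors. It rose by 3.15 on the log2 scale (limma SE 0.17, adjusted p = 0.000187), a size near the Slc18a2 difference. Aldh2, the better known enzyme for the aldehydes that monoamine oxidases produce, did not pass (log2 fold change -0.31, limma SE 0.14, adjusted p = 0.159). It was called lower with probe sets averaged (-0.62, limma adjusted p = 0.0427) and with hybridisation control scaling (-1.35, limma adjusted p = 0.00113). Sult1a1, a phenol sulfotransferase gene, read 132, 148 and 126 against 693, 225 and 752. Tumor 2 was low among the tumors for Sult1a1, which rose by 1.66 on the log2 scale (limma SE 0.41, adjusted p = 0.0244) but lost its call without any 1 sample except tumor 2, with adjusted p up to 0.0782, and with hybridisation control scaling (0.74, adjusted p = 0.0713). The other breakdown genes that rose, named after their values were seen, were Hnmt, which methylates histamine, and Aoc3, an amine oxidase gene known from smooth muscle and endothelium. Hnmt read 191, 224 and 206 in wild-type samples and 400, 314 and 324 in tumors (log2 fold change 0.66, limma adjusted p = 0.0196). Hybridisation control scaling turned Hnmt to -0.27, and the call was lost without wild-type sample 1 (0.0856) or 3 (0.0634). Aoc3 read 326, 375 and 429 against 1308, 676 and 563 (log2 fold change 1.02, limma adjusted p = 0.0448). Its call was lost without tumor 2 or any 1 wild-type sample, with adjusted p up to 0.139, and with hybridisation control scaling it was at 0.04.

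**Figure D3:**
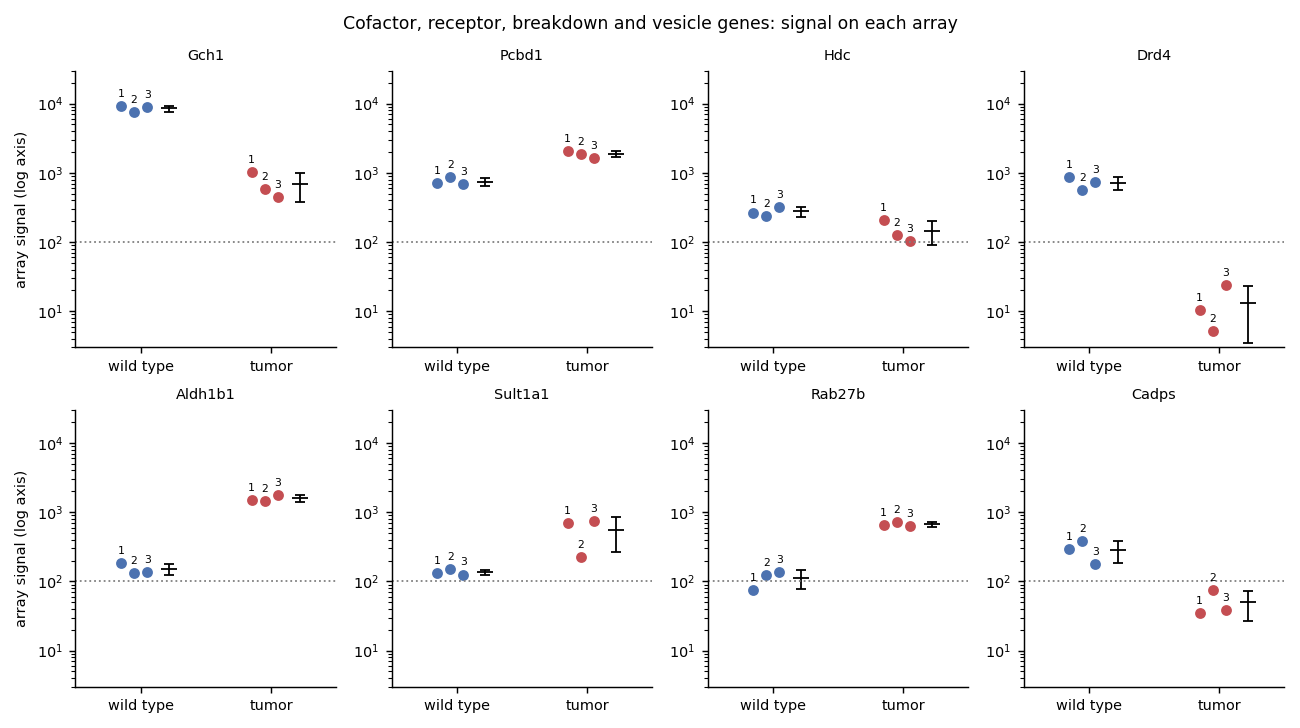
Array signal on a log axis for 8 pathway genes named by rule, with 1 point per array, the mean with SD beside the points and a dotted line at 100. Gch1 and Drd4 are lower in all 3 tumors, Drd4 below 100, and Aldh1b1 and Rab27b are higher in all 3.

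Of the amine receptor genes, most lay below the signal minimum and 1 changed strongly. Drd4, a dopamine receptor gene, was the only tested catecholamine receptor gene among the 6 named on the array here. It read 870, 560 and 735 in wild-type samples and 10.5, 5.24 and 24.3 in tumors. The tumors all lay below 100, so Drd4 fell at least 7.10-fold, from the mean log2 signal of the wild-type samples against 100 (limma adjusted p = 0.000188). Its second probe set read 375, 248 and 279 against 23.7, 9.84 and 46.5. Of 18 serotonin, histamine and trace amine receptor genes, 12 lay below 100 on all 6 arrays and 2 were tested, with 0 called. The one with the smaller p, the serotonin channel gene Htr3a, read 152, 90.4 and 290 against 83.4, 109 and 66.9 (limma adjusted p = 0.162).

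The vacuolar proton pump, which powers vesicle loading, had 3 subunit genes called lower and 1 called higher, the latter on 1 of 2 probe sets that disagreed. Among its subunit genes 18 were tested: 1 rose, 3 fell and 14 missed the threshold, at a median of -0.27 (-1.26 with hybridisation control scaling). Atp6v0e2 fell, with mean signals of 4477 ± 273 (SD, n = 3) in wild type and 2351 ± 455 in tumors (log2 fold change -0.93, limma SE 0.17, adjusted p = 0.00917). Atp6v0b, at 4143 ± 801 in wild type and 2187 ± 336 in tumors, fell too (log2 fold change -0.91, limma SE 0.20, adjusted p = 0.016), and its other 2 passing probe sets had log2 differences of -0.52 and -0.63. The third that fell was Atp6v0a1 (-0.82, limma SE 0.19, adjusted p = 0.0214), whose call was lost without wild-type sample 1 (0.0595), wild-type sample 2 (0.055) or tumor 2 (0.061); it was named after its value was seen. The 1 called higher, Atp6v1g1 (0.60, SE 0.16, limma adjusted p = 0.0347), rests on 1 of 2 probe sets. The other had a log2 difference of -0.20, with all tumors below all wild-type samples. With probe sets averaged the log2 fold change was 0.20 (limma adjusted p = 0.34). Hybridisation control scaling turned the first to -0.45. Without any 1 sample except tumor 1 the call was lost, with limma's adjusted p up to 0.106.

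Vesicle genes changed in both directions, with 2 of 11 higher, 1 lower, 8 that did not pass and a median of 0.19 (-0.86 with hybridisation control scaling). Rab27b, a small GTPase gene of secretory granule docking, read 74.2, 124 and 136 in wild-type samples and 647, 724 and 626 in tumors (log2 fold change 2.31, SE 0.20, limma adjusted p = 0.000742). Of its 4 passing probe sets, 3 separated the groups with the tumors on top, and the fourth overlapped (log2 difference -0.18). Syt7, a calcium sensor of vesicle release named after its values were seen, rose from 2882, 2400 and 1948 to 3873, 4241 and 4659 (log2 fold change 0.83, limma adjusted p = 0.0172). That was -0.21 with hybridisation control scaling, and the call was lost without wild-type sample 3 (0.0539) or with probe sets averaged (0.44, adjusted p = 0.0601). Cadps, which primes dense core vesicles for release, read 290, 386 and 179 against 34.8, 76.0 and 38.3. All Cadps tumor values lay below 100, so Cadps fell at least 2.72-fold (limma adjusted p = 0.00482). The chromogranin genes Chga and Chgb, whose products fill dense core vesicles, failed the filter. Chga read 278 in tumor 2 and at most 48.7 on the other arrays.

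Granulosa cell markers were present in both groups: 14 of 14 named on the array passed the filter, of which 2 rose, 6 fell and 6 did not pass (median log2 fold change -0.50; 2 higher, 12 lower and a median of -1.54 with hybridisation control scaling). The granulosa transcription factor gene Foxl2 read 11642, 9843 and 10542 in wild-type samples and 8633, 7565 and 6439 in tumors. Its log2 fold change was -0.51 (SE 0.16, limma adjusted p = 0.0583), just short of a call. Foxl2 was called lower with a signal minimum of 200 (limma adjusted p = 0.0457) and a pseudocount of 100 (0.045). So it was with a variance prior that follows intensity (0.0263) and with hybridisation control scaling, at -1.55. Fshr, which encodes the FSH receptor, fell (log2 fold change -3.23, limma SE 0.45, adjusted p = 0.0036), as did the activin subunit gene Inhba (-5.42, limma SE 0.48, adjusted p = 0.000805). The markers that rose, named after their values were seen, were Wt1, a transcription factor gene (2.23, limma SE 0.23, adjusted p = 0.00119), and Amh, the anti-Müllerian hormone gene (2.00, limma SE 0.59, adjusted p = 0.0443). The Amh call was lost without any 1 sample except wild-type sample 2, with adjusted p up to 0.133. The summed signal of the list was 190812 to 215266 in wild-type samples and 84336 to 103109 in tumors. The sum adds signals of different probe sets, with Inhba and Inhbb among the brightest. The part of the granulosa cell share in the members' signals was not tested.

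Cell types outside the granulosa that are known to express Slc18a2 were checked by their markers. Of 10 mast cell markers, 3 passed the filter, 0 rose, 1 fell and 2 did not pass the test, with a median log2 fold change of 0.20. The 1 that fell was Hdc, described above, and the 2 others were Kit and Gata2. No protease gene of the list passed the filter, so these counts do not cover the proteases. The list summed to 728 to 1129 in wild-type samples and 839 to 2093 in tumors. Of 5 mast cell protease genes in the list, Cpa3, Tpsb2, Cma1 and Mcpt4 were highest in tumor 1 of the 6 arrays, and Tpsab1 was not (114 in wild-type sample 1, 68.2 in tumor 1). The IgE receptor gene Ms4a2 was highest in wild-type sample 3, at 155, and read 42.5 in tumor 1. Cpa3 read 15.1, 9.70 and 66.9 in wild-type samples and 357, 110 and 46.4 in tumors, and Tpsb2 13.9, 41.0 and 14.1 against 355, 3.38 and 19.9. Cma1 and Mcpt4 followed, at 326 and 267 in tumor 1 and below 100 on the other 5 arrays. Cma1 was higher in all tumors than in all wild-type samples, at 57.8 and 97.2 in tumors 2 and 3. Its wild-type signals were 42.0, 2.80 and 40.0. Cpa3, Tpsb2, Tpsab1 and Mcpt4 overlapped between the groups. Kit read 171, 166 and 216 against 187, 675 and 175, with 1 high tumor, tumor 2. Without tumor 1 the Slc18a2 log2 fold change was 3.27. The part of mast cells in the Slc18a2 signal was not tested.

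Of 8 platelet markers on the array, 5 were tested, 1 rose and 4 did not pass, with a median of -0.17 and sums of 844 to 1017 in wild-type samples and 1144 to 1458 in tumors. The 1 that rose was the chemokine gene Pf4, which read 135, 202 and 202 against 414, 474 and 712 (log2 fold change 1.40, limma SE 0.24, adjusted p = 0.00731; 0.46 and not called with hybridisation control scaling). Itga2b, the platelet integrin gene, read 226, 202 and 246 against 238, 134 and 231 (limma adjusted p = 0.594). Of 11 markers of sympathetic neurons and chromaffin cells, 5 lay below 100 on all 6 arrays and 2 were tested. The list summed to 1447 to 1511 in wild-type samples and 1186 to 1428 in tumors. Uchl1 was the largest part of each sum, at 923, 958 and 818 in wild-type samples and 852, 644 and 993 in tumors. It was tested and not called (log2 fold change -0.13), and the sums are not read as a measure of neurons. Stmn2, a neuron gene, read 48.4, 40.4 and 15.7 against 44.5, 57.2 and 67.9. Elavl4, a neuronal RNA-binding protein gene, fell at least 1.46-fold (limma adjusted p = 0.016; 0.0633 without wild-type sample 1). Among 5 Schwann cell markers only Mbp was tested, and it rose by 1.07 (SE 0.22, limma adjusted p = 0.0141). Without wild-type sample 1 limma's adjusted p for Mbp was 0.0604. With hybridisation control scaling Mbp was at 0.12 and not called. S100b failed the filter and read 15.8, 28.6 and 18.8 in wild-type samples and 285, 58.4 and 152 in tumors. Sox10, Gfra3 and Foxd3 failed it too, with overlapping groups.

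**Figure D4:**
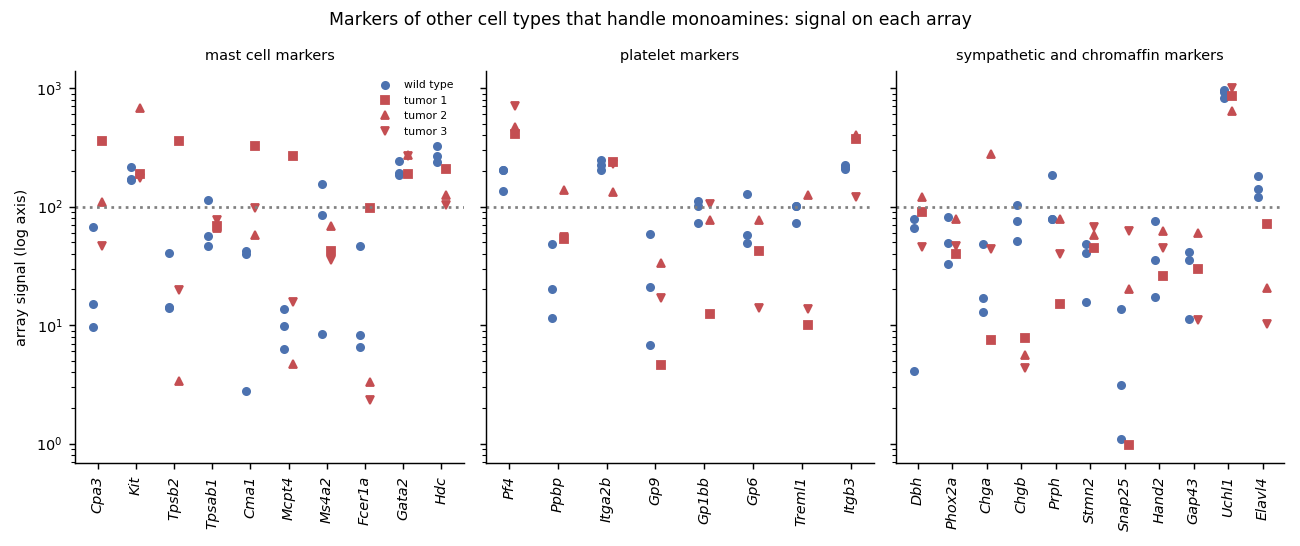
Array signal on a log axis for mast cell, platelet and sympathetic or chromaffin markers, with circles for wild-type arrays, 1 symbol per tumor and a dotted line at 100. Cpa3, Tpsb2, Cma1 and Mcpt4 lie between 267 and 357 in tumor 1, and most other protease values lie below 100.

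Markers of stromal cells and macrophages rose with the members that were higher in tumors. Of the tested markers, 11 of 11 macrophage, 7 of 12 endothelial, 11 of 11 smooth muscle and pericyte, 9 of 11 fibroblast, 4 of 8 theca and interstitial and 1 of 2 lymphocyte genes were called higher. Called lower were 1 fibroblast and 2 theca and interstitial genes. In the theca and interstitial list, Ptch1, Gli1, Nr2f2 and Tcf21 were called higher, and Cyp17a1 and Cyp11a1 lower. Over all 11 marker lists, 47 genes were called higher and 11 lower (34 and 25 with hybridisation control scaling). Among all tested genes 14.5% were called higher and 12.6% lower. Median log2 fold changes were 2.36 for macrophage, 1.42 for endothelial, 2.26 for smooth muscle, 2.14 for fibroblast, 0.97 for theca and 1.09 for lymphocyte markers (1.42, 0.46, 1.32, 1.21, -0.03 and 0.29 with hybridisation control scaling). Summed macrophage markers were 2402 to 2799 in wild-type samples and 14087 to 17150 in tumors, and summed smooth muscle markers 6124 to 7942 and 24055 to 42583. The sums were 2498 to 3265 and 6892 to 13436 for endothelial markers, 23615 to 27499 and 47568 to 71165 for fibroblast markers, and 386 to 584 and 661 to 1508 for lymphocyte markers. Those of theca and interstitial markers overlapped, at 58679 to 71560 and 37088 to 81678. Hsd3b1, at 36586 to 46353, made up most of these wild-type sums. The most changed called genes of these lists were C1qc (3.50), Sox18 (2.81), Rgs5 (3.73), Postn (3.57) and Cyp17a1 (-4.85) on the log2 scale. For lymphocytes it was Ptprc, below 100 in all wild-type samples and at least 4.13-fold higher in tumors (limma adjusted p = 0.0136). With a pseudocount of 1 limma's adjusted p for Ptprc was 0.0648. Cd8a, the only other lymphocyte marker tested, was slightly lower in tumors on the log2 scale (-0.33), with overlapping groups, and was not called. The rest of the 9 lymphocyte markers on the array failed the filter. The lymphocyte sums include Ptprc, at 307 to 659 in tumors, so the rise in this list rests largely on that gene. Ptprc is not particular to lymphocytes, and no rise of lymphocytes is read from it. The part of these cells in the higher Slc18a2, Maoa and Maob signals was not tested.

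The pattern of Slc18a2 over the 6 arrays was matched most closely by Mettl24, Igdcc4, Gli1, AI467606 and Cacna1c. Likeness was the root mean square difference of log2(signal + 32), each gene centred on its own mean, and was 0.28, 0.30, 0.30, 0.32 and 0.33 for these 5. Mettl24 read 166, 138 and 98.6 in wild-type samples and 1434, 1291 and 1699 in tumors. The wild-type signals of Gli1, a Hedgehog effector gene, and of Cacna1c, a calcium channel gene, lay below 100. By Pearson correlation, 0 of these 5 were among the 5 closest genes, and 494 tested genes had a correlation above 0.95 with Slc18a2. These are descriptions over 6 arrays in 2 groups and carry no p.

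**Figure D5:**
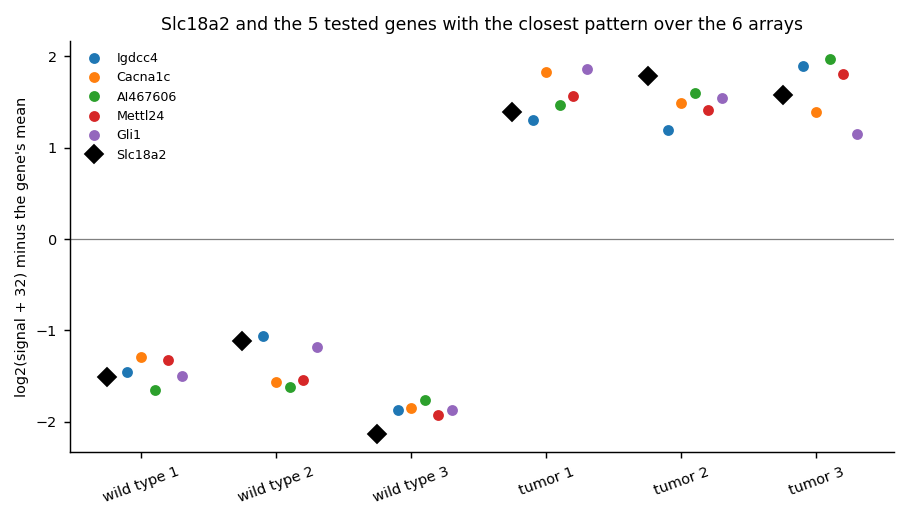
Log2(signal + 32) minus the gene's mean over the 6 arrays, for Slc18a2 (diamonds) and the 5 genes with the smallest root mean square difference from it (circles), by array. All 6 genes lie below 0 in the wild-type samples and above 0 in the tumors.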

How the data were processed

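Total RNA of 6 mouse samples was hybridised to 1 Affymetrix array each. The deposited values are linear intensity signals, 1 per probe set, made by the authors with MAS5 (wild-type arrays) or GCOS (tumor arrays), per the submitters' processing notes. Each array was scaled to a trimmed mean of 500 (2% left out at each end), which moved almost nothing, and values were tested as log2(signal + 32). Among a gene's probe sets that reached 100 on 3 or more of the 6 arrays, the one with the highest mean stood for the gene.

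The test was limma 3.58.1 (lmFit, eBayes, 2-sided; R 4.3.3) over 11611 genes, with Benjamini-Hochberg adjustment. Python 3.11.15, pandas 2.3.3 and matplotlib 3.10.9 made tables and figures. SD is over 3 arrays and SE is limma's. P-values set the difference between the groups against the spread between these samples, which limma moderates over all genes. Wild-type arrays are pools of females, so that spread is not one between single mice. The 3 arrays per group limit the precision. "At least" folds set each array of a group that lay wholly below 100 to 100. The members and lists were chosen with earlier results of these data known. Named were the members, the 2 called genes with the largest change per pathway list with the largest in the other direction (or the smallest p), the most changed called marker per cell type list with some fixed markers, and the 5 genes most like Slc18a2. Other genes are named to give values beside these. Alternatives covered the pseudocount, the filter, the scaling, the probe set rule, a replicate block, the variance prior and leaving out each sample.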

Additional observations from a re-analysis of the deposited data

How the results depend on the processing

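Slc18a2 and Maob were higher in tumors under every alternative run, and Maoa under all but hybridisation control scaling. That scaling gave log2 fold changes of 2.13 for Slc18a2, 1.25 for Maob, -0.27 for Maoa, -1.78 for Ddc and -0.95 for Slc6a2, counts of 416 higher and 7544 lower over all genes, 2 and 40 among pathway genes and 25 lower marker genes (11 in the main analysis), and turned Kit to -0.35, Atp6v1g1 to -0.45, Hnmt to -0.27, Syt7 to -0.21, Emx2 to -0.52 and Fundc1 to -0.68. Maoa was at 0.42 with probe sets averaged and 0.85 with median scaling, which gave 919 lower genes against 1468 and put Pts at 0.03 and Rab11fip2 at 0.09. Maob was at 2.48 with a pseudocount of 1 and 1.65 with 100. Without a filter, 5 pathway genes were higher against 8. Leaving out 1 sample gave 2.90 to 3.41 for Slc18a2, 1.96 to 2.26 for Maob, 0.71 to 0.80 for Maoa, -1.10 to -0.57 for Ddc and -0.29 to 0.09 for Slc6a2. It gave 3 to 8 higher and 5 to 10 lower pathway genes, and 866 to 1704 higher and 662 to 1409 lower over all genes, both lowest without wild-type sample 1. Of 39 named genes called, 25 kept their call whichever sample was left out. Many of these were named for the size of their change in this contrast, so the share does not describe all genes. Kit ranged from -0.02 (without tumor 2) to 0.87, and Itga2b was at 0.06 without tumor 2. Without 1 sample, Pts ranged from -0.19 to 0.06 and Rab11fip2 from -0.12 to 0.11. By Pearson correlation, 0 of the 5 genes most like Slc18a2 were shared. With the replicate number as a block, 5 pathway genes were higher and 8 lower. Correlations of deviations were -0.0449, 0.0276 and 0.09 for same-numbered samples and -0.145 to 0.133 for the others. These values show no pairing by number, but so few of them cannot exclude it. Causes of these changes were not tested. Signals near 100 limit what can be said of Slc18a1, Slc6a2, Slc6a4 and Th.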

Other observations

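Genes beside the members in the RefSeq gene order (GRCm38.p6), a choice made by position, did not all move with them. The next tested genes on either side of Slc18a2 were Shtn1 (log2 fold change 1.02, SE 0.29), Pdzd8 (-0.50, SE 0.13), Emx2 (0.46, SE 0.16) and Rab11fip2 (-0.01, SE 0.17). Shtn1 and Pdzd8 passed limma's threshold (adjusted p = 0.0411 and 0.0322), and lost it without any 1 sample except, for Shtn1, tumor 2. Maoa and Maob lie next to each other on the X chromosome, and the nearest tested gene beyond Maob, Fundc1, had a log2 fold change of 0.35 (SE 0.16). Ddc lies between Fignl1, with mean signals of 1549 ± 281 (SD, n = 3) for wild type and 569 ± 121 for tumors, and Grb10, with 485 ± 74.4 and 1244 ± 201.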
